A study of Homo sapiens with 22 samples.

Results

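The collagen genes of 3 renal cancer cell lines, and of CRISPRi derivatives of 1 of them, were followed across 22 poly(A) RNA-seq libraries. Members were all genes in the deposited tables whose symbol has the form COL, a number, A, a number, which gave 44 of the 25343 genes listed. The 3 lines were profiled unmodified, with 2 libraries each: OS-LM1 (a metastatic line that does not descend from 786-O), a metastatic derivative of 786-O, and 786-O itself, which comes from a clear cell renal carcinoma. The derivative is labelled RNA-Seq_786-M1A and is written M1A here. A further 16 libraries came from M1A cells in which a catalytically dead Cas9 is guided to a site without cutting it (CRISPR interference). Of these, 4 carried the guide iMAE-1.1 and 4 the guide iMAE-1.2, together called the MAE-1 guides, 2 carried iMAE-126 and 6 a non-targeting guide (SC). The study calls metastasis-associated enhancers MAE, and the labels name no target gene, clone or separate culture. All 22 libraries came from cells in culture, with no stroma or host tissue, and p-values measure the spread between these libraries, which may be technical.

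Collagens are secreted or membrane-bound proteins whose chains wind into a triple helix. Fibrillar types (I, III, V, XI) build fibres, type IV builds the sheet of basement membranes, type VI builds beaded filaments around cells, type VII anchors basement membranes to the tissue beneath, and the FACIT types decorate fibres. Chains assemble only with set partners, so the transcripts of partner chains are best read together. Proximal tubule cells, from which clear cell carcinoma arises, rest on a type IV basement membrane.

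The type IV genes lie in head-to-head pairs, each pair with its starts back to back on opposite strands. In GRCh38.p14, the starts of COL4A1 and COL4A2 lay 127 bases apart on chromosome 13, those of COL4A6 and COL4A5 380 or 1416 bases apart on chromosome X for the 2 annotated COL4A6 starts, and those of COL4A4 and COL4A3 419 bases apart on chromosome 2. The type VI genes COL6A2 and COL6A3 lie on different chromosomes. The sequence between the starts of COL4A1 and COL4A2 is shown because both genes fell together in OS-LM1, the COL4A5 promoter because COL4A5 switched between lines, and the COL6A3 and COL6A2 promoters because these partner chains moved in opposite directions in OS-LM1 against M1A. All are from RefSeq, 5′ to 3′ on the strand named. Capitals mark matches on either strand to the GC box (letters GGGCGG), the CCAAT box (letters CCAAT) and the TATA box (letters TATAAA). No match overlapped another.
COL4A1 and COL4A2, chr13:110307158-110307283, plus strand: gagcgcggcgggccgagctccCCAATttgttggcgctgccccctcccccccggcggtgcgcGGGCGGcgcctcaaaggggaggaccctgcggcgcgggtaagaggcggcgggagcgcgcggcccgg
COL4A5, chrX:108439588-108439837, plus strand: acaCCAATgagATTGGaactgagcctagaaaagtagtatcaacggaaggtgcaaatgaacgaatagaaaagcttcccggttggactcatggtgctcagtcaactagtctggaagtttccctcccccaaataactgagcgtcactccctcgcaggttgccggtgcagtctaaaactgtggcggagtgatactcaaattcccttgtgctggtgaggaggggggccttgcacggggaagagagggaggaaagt
COL6A3, chr2:237414165-237414414, minus strand: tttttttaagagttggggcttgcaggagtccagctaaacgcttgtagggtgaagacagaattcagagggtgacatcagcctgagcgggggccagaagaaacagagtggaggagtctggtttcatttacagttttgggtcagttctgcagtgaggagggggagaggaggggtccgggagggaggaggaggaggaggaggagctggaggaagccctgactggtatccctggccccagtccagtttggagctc
COL6A2, chr21:46097862-46098111, plus strand: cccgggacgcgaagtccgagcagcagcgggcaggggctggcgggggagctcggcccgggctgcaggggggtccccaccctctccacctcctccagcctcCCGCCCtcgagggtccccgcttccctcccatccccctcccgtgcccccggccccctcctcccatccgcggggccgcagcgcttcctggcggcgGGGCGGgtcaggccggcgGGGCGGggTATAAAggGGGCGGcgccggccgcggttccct

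The COL4A1 and COL4A2 interval held 1 GC box and 1 CCAAT box, and 80.2% of its bases were G or C. In windows of the same length, 34.6% of 35116 RefSeq promoters held the GC box and 21.1% the CCAAT box. The COL6A2 window held 4 GC boxes and 1 TATA box in 250 bases at 79.6% G or C. Of all 250-base windows, 42.6% held the GC box and 10.7% the TATA box. None of the 3 motifs was found in the COL6A3 window, at 56% G or C. The COL4A5 window held 2 CCAAT boxes, and 32% of all 250-base windows held at least 1. The promoter table held 32 of the 44 members, and a match describes letters only.

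Depth was 9062605 to 52706490 expected counts a library. Renal carcinoma markers were present, with 6 of 7 at 1 TPM or more in M1A, 786-O and every CRISPRi group and 7 of 7 in OS-LM1. Of 8 fibroblast and pericyte markers, 1 reached 1 TPM in OS-LM1 (sum 64.2 to 66.1 TPM), 2 in M1A (86.9 to 90 TPM) and 3 in 786-O (14.4 to 16.4 TPM). The sum was mostly ACTA2, an actin of smooth muscle, at 64.6 TPM in OS-LM1, 14.1 TPM in M1A and 10.1 TPM in 786-O, and PDGFRB, a growth factor receptor of pericytes, at 0.125 TPM in OS-LM1, 73.1 TPM in M1A and 1.24 TPM in 786-O. LUM, also among the 8, was at 0.09 TPM in OS-LM1, 0.435 TPM in M1A and 3.5 TPM in 786-O, there above PDGFRB. The fibroblast gene DCN was at 0.115 TPM in OS-LM1 and at 0 in M1A and 786-O, and POSTN was at 0 in M1A. In the CRISPRi groups 2 to 4 of the 8 reached 1 TPM (sum 49.8 to 157 TPM), with PDGFRB at 107 TPM with iMAE-1.1, 113 TPM with iMAE-1.2, 71.6 TPM with iMAE-126 and 49.2 TPM in SC. The part of these markers in the collagen results was not tested. Of 4 endothelial markers, 1 (PECAM1) reached 1 TPM in OS-LM1 and iMAE-126 (1.13 and 1.31 TPM) and 0 in the other groups, and CDH5 was at 0 in all 3 lines. Of 4 leukocyte markers, 0 reached 1 TPM in any group, and the T cell marker CD3E was at 0 in all 22 libraries. CXCR4, a chemokine receptor gene known in renal cancer metastasis, lay at 0 to 0.33 TPM in the 10 iMAE libraries, against 0.6 to 1.87 TPM in the 6 SC libraries.

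The CRISPRi libraries were not uniform within their labels. By the read-weighted mean length of the genes counted, iMAE-126 and SC replicates 1 and 2 lay at 3528 to 3716 bases, and the MAE-1 libraries and SC replicates 3 to 6 at 3264 to 3395 bases. Each guide was therefore compared with the SC libraries of its own range. The 8 libraries of the MAE-1 guides also split into 2 sets that cross their labels. Over 10068 genes, each library's deviation from the mean of the 12 libraries of the shorter range was compared, as a description. iMAE-1.1 replicates 1 and 2 correlated with iMAE-1.2 replicates 3 and 4 at 0.24 to 0.59, and with iMAE-1.1 replicates 3 and 4 at −0.45 to −0.25. iMAE-1.1 replicates 3 and 4 correlated with iMAE-1.2 replicates 1 and 2 at 0.12 to 0.53, and iMAE-1.2 replicates 3 and 4 with iMAE-1.2 replicates 1 and 2 at −0.57 to −0.34. The cause of the split was not tested, and neither was an exchange of labels between pairs, so each value by guide holds only as labelled. The counts of members called with these guides, and the values of COL4A2 and COL8A1, are given below with each pair left out.

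The collagen genes differed widely in level in these cells. Of the 44 members, 20 reached a mean of 1 TPM in at least 1 group, 12 reached 10 TPM and 8 reached 100 TPM. TPM is a level corrected for gene length and scaled to the same total in each library, so that genes can be compared. Another 24 stayed under 1 TPM in every group, and of these COL19A1 and COL25A1 had no count in any library. The rest of the 24 were the fibrillar genes COL1A2, COL2A1, COL3A1, COL5A1, COL5A3, COL11A1 and COL24A1, the type IV genes COL4A3 and COL4A4, COL6A5, COL6A6, COL28A1, COL8A2, COL10A1, COL9A1, COL9A3, COL20A1, COL21A1, COL22A1, COL15A1, COL17A1 and COL26A1. The partner chains of type I were at unlike levels. COL1A2 lay between 0 and 0.05 TPM in all 22 libraries, while COL1A1 averaged 6.54 TPM in OS-LM1, 1.53 TPM in M1A and 3.81 TPM in 786-O.

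The summed collagen level was 909.3 and 914.5 TPM in OS-LM1, 1247 and 1262 TPM in M1A and 1400 and 1457 TPM in 786-O. The mix of classes differed between the lines. Type IV chains made up 3.64% of collagen TPM in OS-LM1, 25% in M1A and 47.6% in 786-O. Type VI and its relative XXVIII made up 47.8% in OS-LM1, 42.3% in M1A and 10.6% in 786-O. The fibrillar genes together held 5.69% in OS-LM1, 2.48% in M1A and 2.99% in 786-O, and the highest fibrillar level in M1A and 786-O was that of COL27A1, a minor fibrillar collagen of cartilage.

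**Figure D1:**
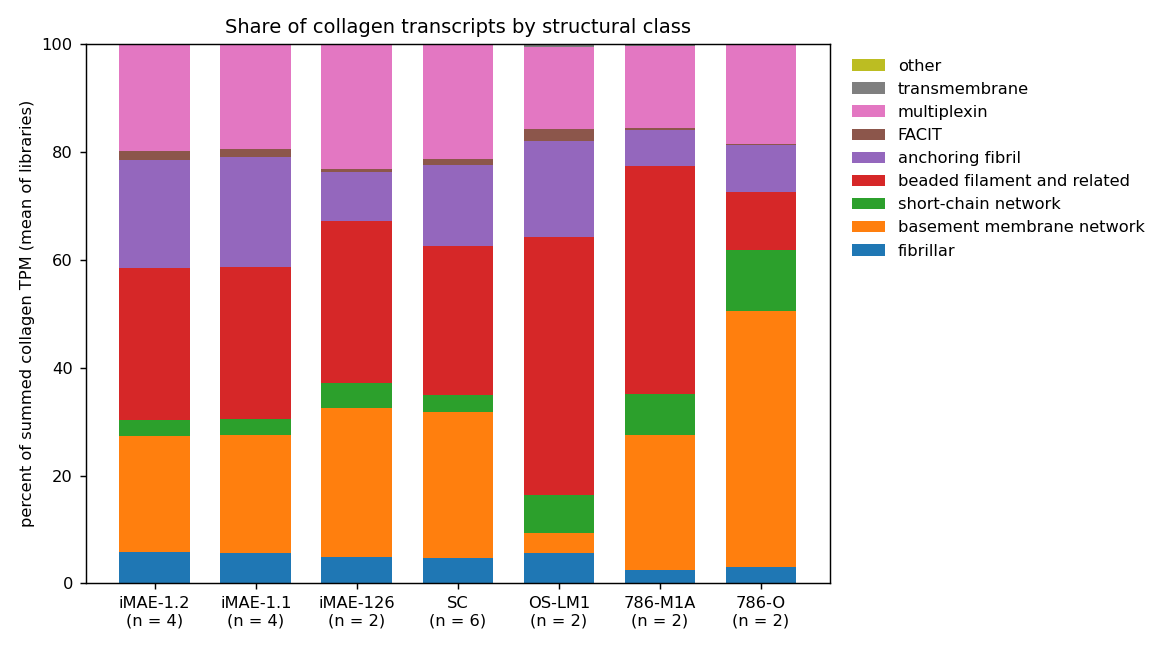
Mean share of the summed collagen TPM held by each structural class, in percent, with 1 stacked bar per group and the number of libraries under each. The type IV share was 3.64% in OS-LM1, 25% in M1A and 47.6% in 786-O.

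**Figure D2:**
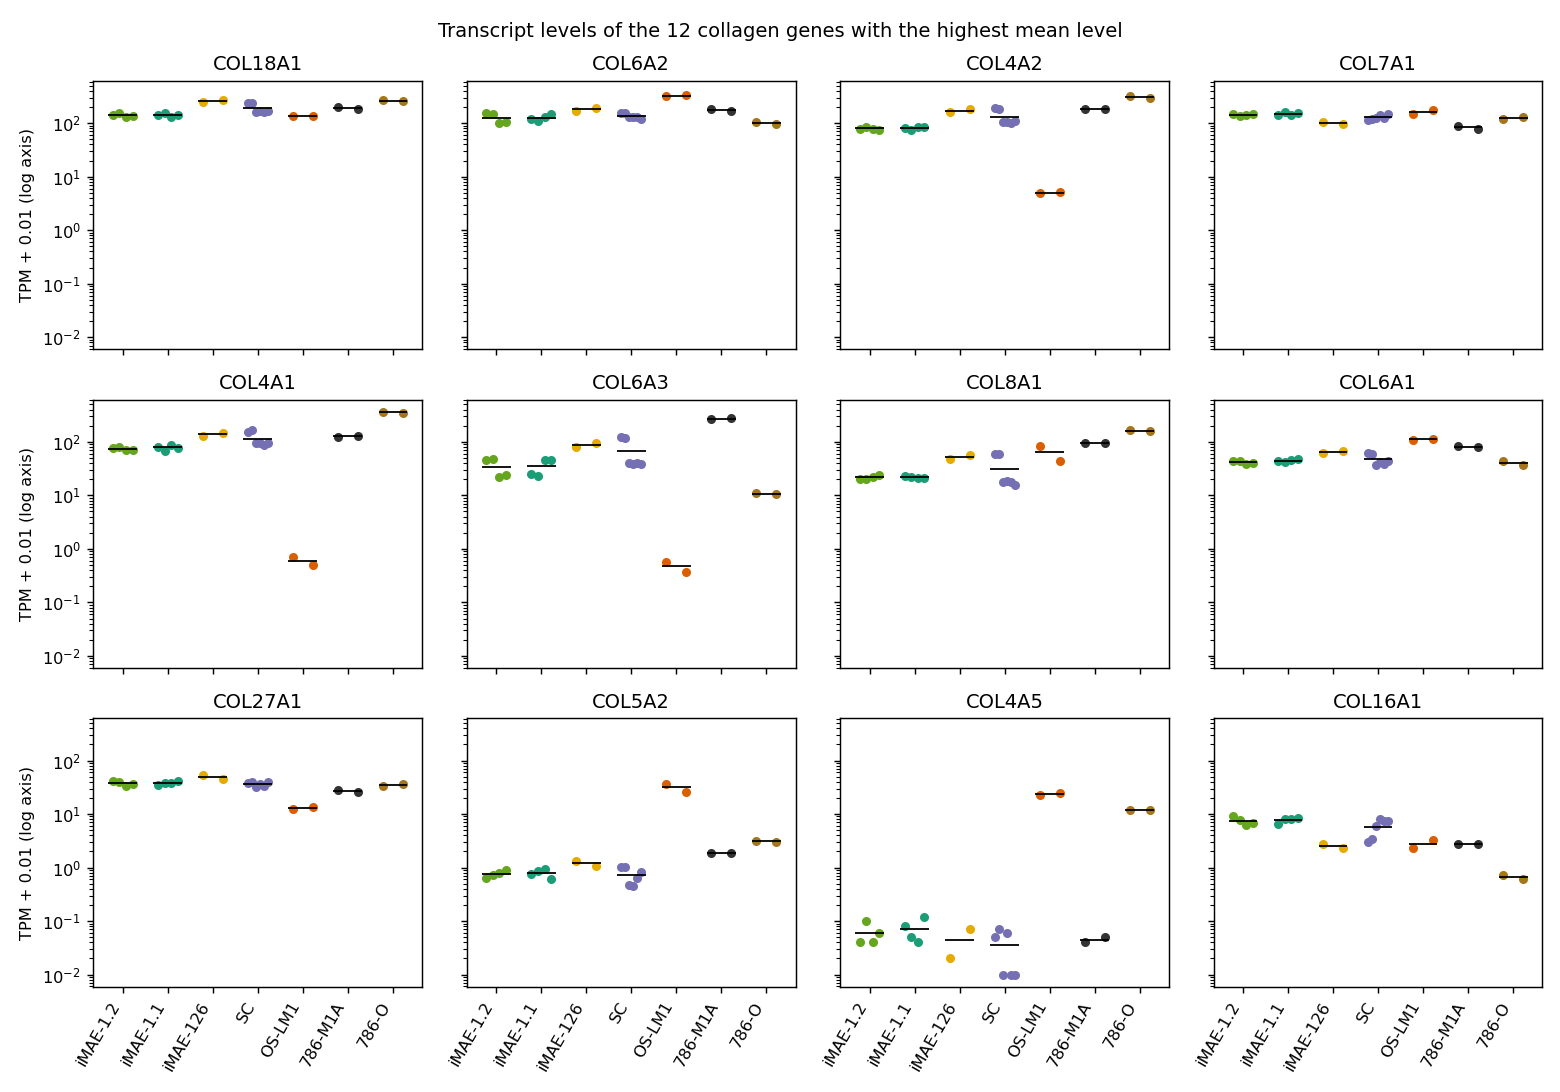
TPM plus 0.01 on a log axis for the 12 members with the highest mean level, with 1 point per library and a line at the group mean. COL4A1 and COL6A3 lie under 1 TPM in OS-LM1, and COL4A5 lies near 0 in M1A and all CRISPRi groups.

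The lines were compared to ask how the collagens of a metastatic derivative differ from those of its parent, and those of a second metastatic line from both. OS-LM1 and M1A are of different origin, so every property of the lines is part of their difference. Both comparisons share the M1A libraries, and the values of both are given. Fold changes are from edgeR's quasi-likelihood test on counts, with a call at an adjusted p under 0.05. In OS-LM1 against M1A, 30 members were tested, 17 were higher and 7 lower, while 34.4% of all genes tested were called higher and 34.3% lower. The median log2 fold change was 1.55 over the members tested and 0.04 over all genes. The value of 1.55 rests on members with few reads that passed the filter on low counts. Over the 20 members at 1 TPM or more in at least 1 group the median was 0.31, and over the other 10 it was 2.96. Among the 20, COL4A6, COL9A2 and COL13A1 reached a mean of 1 TPM only in OS-LM1 (4.08, 1.64 and 2.94 TPM). The 0.31 therefore also includes members chosen by a high level in OS-LM1. In M1A against 786-O, 30 were tested, 7 were higher and 13 lower, while 14.7% of all genes were called higher and 16.3% lower. The median was −0.52 over the members, −0.45 over the same 20, −1.26 over the other 10 and −0.02 over all genes.

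Type IV collagen showed a change of chains. COL4A1 and COL4A2 encode the partner chains of the basement membrane trimer found in nearly all tissues, and COL4A5 and COL4A6 encode chains of a trimer found in Bowman's capsule and some epithelia. COL4A1 had 0.7 and 0.48 TPM in OS-LM1, 123.57 and 130.93 TPM in M1A, and 362.3 and 350.89 TPM in 786-O. The 3 lines did not overlap, and in bulk RNA fewer expressing cells and less RNA per cell cannot be told apart. The log2 fold change was −7.62 (SE 0.17, edgeR adjusted p = 4.68e-08) in OS-LM1 against M1A and −1.41 (SE 0.12, adjusted p = 9.73e-05) in M1A against 786-O. COL4A2 followed the same order, with 4.91 and 5.13 TPM in OS-LM1, 185.2 and 187.23 TPM in M1A, and 323.37 and 299.73 TPM in 786-O. Its log2 fold changes were smaller, −5.13 (SE 0.12, edgeR adjusted p = 4.68e-08) and −0.67 (SE 0.1, adjusted p = 0.00175). COL4A1 per COL4A2 in TPM was 0.118 in OS-LM1, 0.683 in M1A and 1.15 in 786-O. The 2 genes that share the printed interval thus moved the same way, by unequal amounts.

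COL4A5 ran against them in OS-LM1 against M1A, but was lower together with them in M1A against 786-O. It had 22.49 and 24.34 TPM in OS-LM1, 0.03 and 0.04 TPM in M1A, and 11.87 TPM in each 786-O library. In counts this was 3246 reads in OS-LM1, 10 in M1A and 2738 in 786-O. The log2 fold change was 9.39 (SE 0.19, edgeR adjusted p = 4.03e-08) in OS-LM1 against M1A and −8.25 (SE 0.19, adjusted p = 3.11e-07) in M1A against 786-O. The 786-O parent therefore held a COL4A5 transcript that its metastatic derivative held at the level of a few reads. COL4A6, its head-to-head neighbour, had 592 reads in OS-LM1 (3.83 to 4.33 TPM), 0 in M1A and 8 in 786-O. It was at least 441.4-fold higher in OS-LM1 than in M1A, with the floor at 3 counts over both M1A libraries. COL4A5 was present in 786-O nearly without COL4A6, at a COL4A6 to COL4A5 ratio of 0.00295, against 0.175 in OS-LM1. The call of COL4A6 in M1A against 786-O rests on 8 reads, and leaving out any 1 of the 4 libraries ended it (adjusted p 0.0508 to 0.0574).

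**Figure D3:**
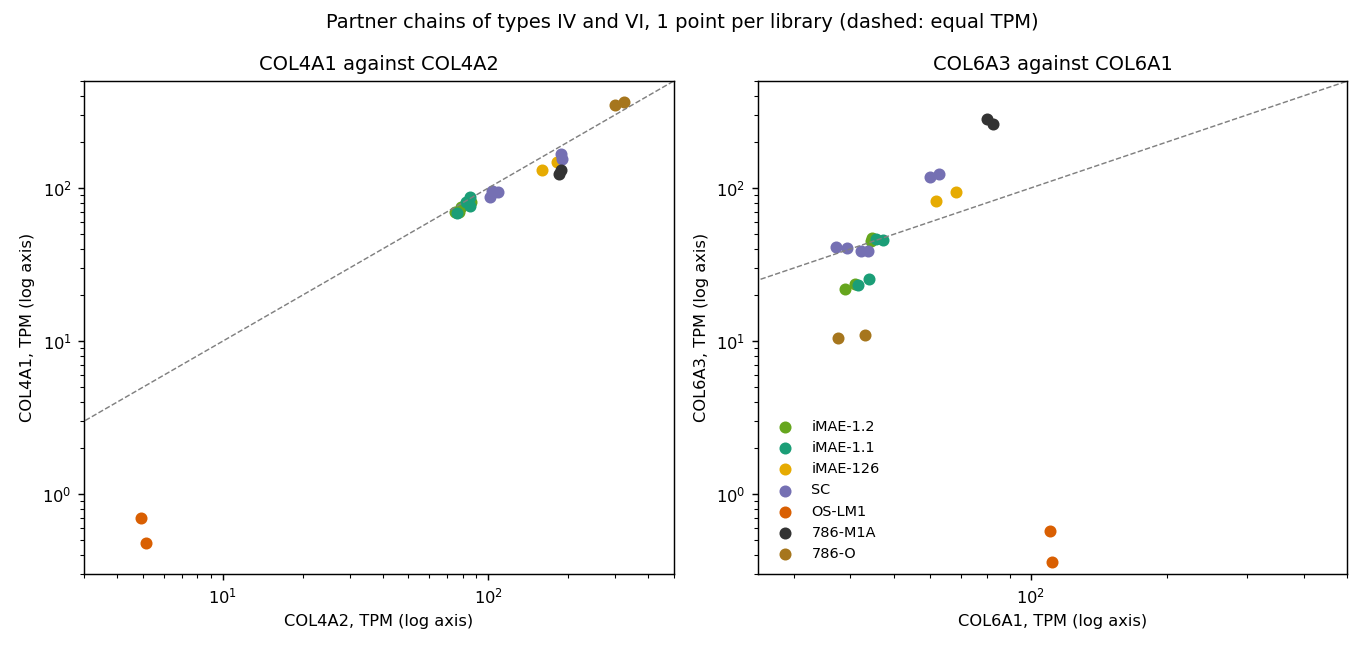
COL4A1 against COL4A2 (left) and COL6A3 against COL6A1 (right) in TPM on log axes, 1 point per library coloured by group, with a dashed line at equal TPM. OS-LM1 lies far below the line in both panels, at mean ratios of 0.118 and 0.00421.

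Type VI collagen changed mainly in COL6A3. Its monomer needs the products of COL6A1, COL6A2 and, in most tissues, COL6A3. COL6A3 had 0.57 and 0.36 TPM in OS-LM1, 262.64 and 281.71 TPM in M1A, and 10.99 and 10.48 TPM in 786-O. It was the most abundant collagen transcript of M1A, and the log2 fold change was −9.14 (SE 0.21, edgeR adjusted p = 4.68e-08) in OS-LM1 against M1A and 4.76 (SE 0.17, adjusted p = 1.26e-06) in M1A against 786-O. The other chains did not follow it in OS-LM1. COL6A1 had 110.09 and 111.23 TPM in OS-LM1, 82.63 and 80.18 TPM in M1A, and 43.05 and 37.56 TPM in 786-O. COL6A2 had 315.5 and 333.46 TPM in OS-LM1, 183.57 and 169.33 TPM in M1A, and 103.97 and 97.17 TPM in 786-O. Both rose in each comparison, by 0.53 and 0.98 (log2, adjusted p = 0.00277 and 9.81e-05, edgeR) in OS-LM1 against M1A and by 1.09 and 0.89 (adjusted p = 0.000228 and 0.000614) in M1A against 786-O. COL6A3 per COL6A1 was 0.00421 in OS-LM1, 3.35 in M1A and 0.267 in 786-O, while COL6A2 per COL6A1 was 2.93 in OS-LM1, 2.17 in M1A and 2.5 in 786-O. COL6A5 and COL6A6, whose chains can stand in for that of COL6A3, lay under 1 TPM in every group.

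The abundant types VII, VIII and XVIII moved less. COL7A1, the anchoring fibril collagen, had 148.79 and 178.33 TPM in OS-LM1, 88.8 and 77.42 TPM in M1A, and 122.05 and 129.66 TPM in 786-O. Its log2 fold change was 1.06 (SE 0.13, edgeR adjusted p = 0.000169) in OS-LM1 against M1A and −0.52 (SE 0.13, adjusted p = 0.0168) in M1A against 786-O. COL18A1, which carries endostatin at its end, had 137.26 and 137.92 TPM in OS-LM1, 197.24 and 184.32 TPM in M1A, and 270.17 and 254.25 TPM in 786-O. Its log2 fold change was −0.38 in each comparison (SE 0.1, edgeR adjusted p = 0.0097 and 0.0223). COL8A1, a short-chain collagen of vessel walls and Descemet's membrane, had 84.14 and 43.65 TPM in OS-LM1, 94.84 and 95.03 TPM in M1A, and 163.56 and 159.9 TPM in 786-O. It was not called in either comparison, at log2 −0.48 (adjusted p = 0.115) for OS-LM1 against M1A and −0.7 (adjusted p = 0.0648) for M1A against 786-O. The OS-LM1 libraries stood far apart for this gene. Without OS-LM1 replicate 1 the first became −1.04 (edgeR adjusted p = 2.62e-12), and with only M1A and 786-O in the fit the second passed the test (−0.7, adjusted p = 8.68e-11). In M1A against 786-O, the calls of COL7A1 and COL18A1, with those of COL5A2 and COL14A1 below, were each lost whichever of the 4 libraries was left out, and in OS-LM1 against M1A that of COL18A1 was lost without M1A replicate 1 (adjusted p = 0.0992).

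Of the fibrillar genes at 1 TPM or more, COL5A2 and COL1A1 were higher in OS-LM1 and COL27A1 lower. COL5A2, a chain of type V that nucleates fibres, had 37.08 and 25.74 TPM in OS-LM1, 1.9 and 1.86 TPM in M1A, and 3.16 and 3.03 TPM in 786-O. The log2 fold change was 4.15 (SE 0.18, edgeR adjusted p = 7.99e-07) in OS-LM1 against M1A and −0.64 (SE 0.18, adjusted p = 0.0262) in M1A against 786-O. Its usual partner COL5A1 stayed at 0.1 TPM in OS-LM1, 0.11 TPM in M1A and 0.075 TPM in 786-O. COL1A1 rose by 2.18 in OS-LM1 against M1A (SE 0.14, edgeR adjusted p = 4.68e-06), and in M1A against 786-O its log2 fold change was −1.24 (SE 0.13, adjusted p = 0.000318). COL27A1 had 12.6 and 13.53 TPM in OS-LM1, 27.87 and 26.18 TPM in M1A, and 33.17 and 36.18 TPM in 786-O, and its log2 fold change was −0.96 (SE 0.1, edgeR adjusted p = 8.64e-05) in OS-LM1 against M1A. In M1A against 786-O it was −0.28 (adjusted p = 0.0652). It passed the test with those 4 libraries alone (−0.29, edgeR adjusted p = 0.000471), a fit that called 8733 of 15474 genes tested. COL11A2, another minor fibrillar chain, lay between 0.22 and 1.14 TPM in the 3 lines and was called in neither comparison.

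The FACIT and transmembrane genes lay at low levels and differed from line to line. COL12A1, which binds along type I fibres, had 19.18 and 11.61 TPM in OS-LM1, 1.18 and 1.36 TPM in M1A, and 0.46 and 0.48 TPM in 786-O. It rose in both comparisons, by 3.33 (SE 0.27, edgeR adjusted p = 1.8e-05) and 1.6 (SE 0.3, adjusted p = 0.00523). COL14A1, its close relative, had 0.04 and 0 TPM in OS-LM1, 1.49 and 1.48 TPM in M1A, and 0.81 and 0.94 TPM in 786-O. From 3 reads in OS-LM1 against 411 in M1A it was lower by a ratio of 61.2 (95% interval 20.8 to 298.2, counting error only), and in M1A against 786-O its log2 fold change was 0.84 (SE 0.26, edgeR adjusted p = 0.0424). COL23A1, a transmembrane collagen, had 1.3 and 2.31 TPM in OS-LM1, 3.78 and 3.28 TPM in M1A, and 0.06 and 0.02 TPM in 786-O. Its log2 fold change was 6.55 (SE 0.5, edgeR adjusted p = 5.06e-05) in M1A against 786-O, from 461 reads in M1A and 4 in 786-O. In OS-LM1 against M1A it was −0.91 (adjusted p = 0.0278), a call lost without OS-LM1 replicate 1 or either M1A library. COL16A1 had 2.27 and 3.23 TPM in OS-LM1, 2.8 and 2.69 TPM in M1A, and 0.71 and 0.6 TPM in 786-O, with 0.08 (edgeR adjusted p = 0.742) in OS-LM1 against M1A and a rise of 2.13 (SE 0.22, adjusted p = 0.000266) in M1A against 786-O. COL13A1, a transmembrane collagen, at 3 and 2.87 TPM in OS-LM1 and 0.76 and 0.39 TPM in M1A, and COL9A2, a FACIT chain of cartilage, at 1.43 and 1.84 TPM in OS-LM1 and 0.06 and 0.16 TPM in M1A, were higher in OS-LM1 by 2.42 and 3.96 on the log2 scale (adjusted p = 0.000582 and 0.000325). COL13A1 was not called in M1A against 786-O, with 0.76 and 0.39 TPM in M1A and 0.79 and 0.49 TPM in 786-O. COL9A2 was lower in M1A than in 786-O (−2.41, adjusted p = 0.0138) from 13 reads in M1A and 62 in 786-O, a call lost without M1A replicate 1 or 786-O replicate 2.

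The calls among members under 1 TPM rest on few reads. In OS-LM1 against M1A, 7 of the 17 higher members were of this kind (COL4A4, COL5A3, COL8A2, COL9A3, COL11A1, COL15A1 and COL24A1). COL24A1, a fibrillar gene, had 22 reads in OS-LM1 and 1 in M1A, a ratio of 49.2 per read of depth (95% interval 7.95 to 2031), and COL8A2, the partner of COL8A1, had 49 reads in OS-LM1 and 15 in M1A. In M1A against 786-O, 4 of the 13 lower members were of this kind besides COL4A6 and COL9A2. COL11A1 had 0 reads in M1A and 52 in 786-O, at least 19.9-fold lower in M1A, and COL28A1 had 0 reads in M1A and 35 in 786-O, at least 13.4-fold lower. COL9A3 had 1 read in M1A and 22 in 786-O, and COL4A4 had 4 in M1A and 31 in 786-O. Other members under 1 TPM had more reads in M1A and were not called, such as COL5A1 (39 in M1A, 22 in 786-O) and COL8A2 (15 and 5). A gene can pass the filter on low counts through 1 group where it is high, so these calls show no general direction.

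**Figure D4:**
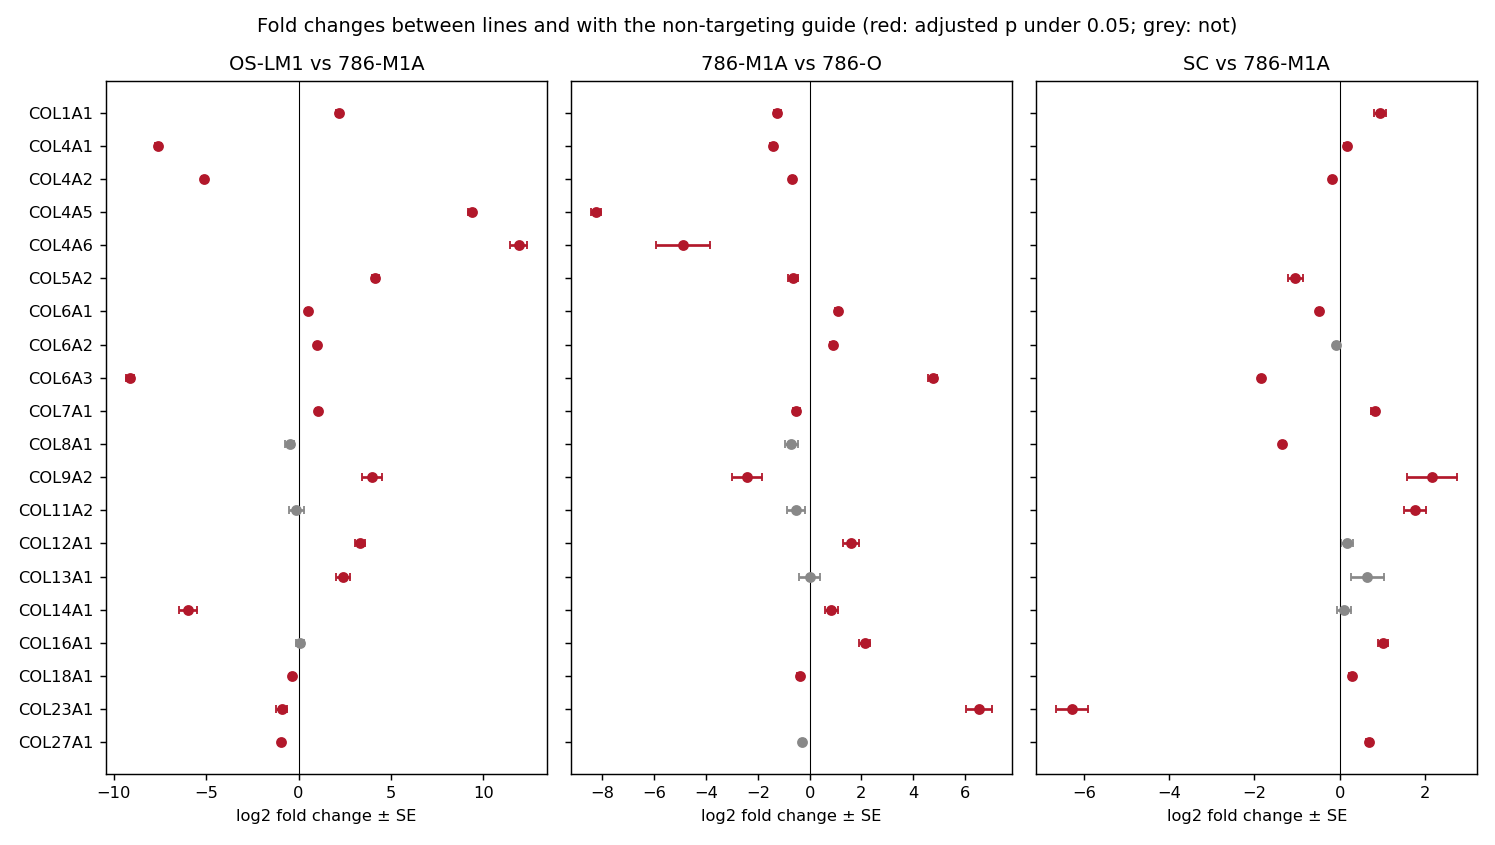
Log2 fold change with its standard error for the 20 members named in the text, in OS-LM1 against M1A, M1A against 786-O and SC against M1A (x axes differ); red points passed an adjusted p of 0.05 and grey ones did not, and COL4A5 and COL4A6 were not tested in SC. COL6A3 was at −9.14, 4.76 and −1.84.

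SC cells were set against unmodified M1A to see how the cells with the non-targeting guide differ from the line they came from. The read-weighted mean gene length was 3929 and 3982 bases in M1A, above both ranges of SC libraries. The CRISPRi background and a difference between libraries therefore cannot be told apart here. Of 20 members tested, 9 were higher and 7 lower in SC, while 36.8% of all genes tested were called higher and 35.1% lower. The median log2 fold change was 0.17 over the members and 0.05 over all genes. By limma on TPM, 5 members were called higher and 7 lower, while 22.2% of all genes were called higher and 43% lower, at a median of −0.14 over all genes. Tested separately in each range of SC libraries, 4 members were higher in both (COL1A1, COL7A1, COL11A2 and COL27A1) and 5 lower in both (COL5A2, COL6A1, COL6A3, COL8A1 and COL23A1).

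COL6A3, COL8A1 and COL23A1 were lower in both ranges of SC libraries, by unequal amounts. Both COL6A3 and COL23A1 were higher in M1A than in 786-O above, a comparison that shares the M1A libraries. COL6A3 had 38.6, 40.7 and 122.7 TPM (lowest, median and highest) in SC, against 262.64 and 281.71 TPM in M1A. No SC library reached the M1A level, and the log2 fold change was −1.84 (SE 0.05, edgeR adjusted p = 1.53e-18), or −2.58 with SC replicates 3 to 6 alone and −1.15 with SC replicates 1 and 2 alone. COL23A1 had 0, 0.015 and 0.18 TPM in SC, against 3.78 and 3.28 TPM in M1A, from 8 reads in 6 libraries and 461 reads in 2 libraries. Its log2 fold change was −6.28 (SE 0.37, edgeR adjusted p = 3.25e-13), or −7.89 with SC replicates 3 to 6 alone, which held 1 read in all, and −4.76 with SC replicates 1 and 2 alone. COL8A1 had 15.9, 18.1 and 59.3 TPM in SC, against 94.84 and 95.03 TPM in M1A (−1.35, SE 0.06, adjusted p = 3.7e-15), or −2.15 with SC replicates 3 to 6 alone and −0.6 with SC replicates 1 and 2 alone. COL6A1 (−0.48) and COL5A2 (−1.04) were also lower in every SC library than in both M1A libraries.

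Among the higher members, COL7A1 had 115.3, 124 and 151.3 TPM in SC, against 88.8 and 77.42 TPM in M1A. The groups did not overlap, and the log2 fold change was 0.82 (SE 0.08, edgeR adjusted p = 6.82e-09). COL27A1 had 31.5, 37.5 and 39.9 TPM in SC, against 27.87 and 26.18 TPM in M1A (0.68, SE 0.07, adjusted p = 1.82e-08). COL16A1, a FACIT collagen, had 2.97, 6.63 and 7.9 TPM in SC, against 2.8 and 2.69 TPM in M1A (1.02, SE 0.12, adjusted p = 5.84e-08). With SC replicates 1 and 2 alone COL16A1 was not called (0.3, edgeR adjusted p = 0.119). COL11A2 (1.77), COL1A1 (0.95) and COL9A2 (2.17) were higher at low levels, and the COL9A2 call was lost without SC replicate 1 (adjusted p = 0.173) or M1A replicate 1 (0.0651). The remaining calls were COL15A1 (1.87) and COL17A1 (−0.8), both under 1 TPM. For COL4A1 and COL18A1, the count scale gave small rises of 0.16 and 0.28, while mean TPM was 115.4 and 190.2 in SC, against 127.2 and 190.8 in M1A. The COL18A1 call was lost with SC replicates 3 to 6 alone (0.12, edgeR adjusted p = 0.0847) and with all 6 SC libraries as 1 group (0.25, adjusted p = 0.0865). COL4A1 turned to −0.06 with limma on TPM and to −0.15 with SC replicates 3 to 6 alone, and its call was lost without SC replicate 2 (adjusted p = 0.109) or M1A replicate 1 (0.208). COL4A2, at −0.18 (edgeR adjusted p = 0.00392) over all SC libraries, was at 0.11 (adjusted p = 0.086) with SC replicates 1 and 2 alone.

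The 2 ranges of SC libraries, which carry the same guide, differed among themselves. In SC replicates 3 to 6 against SC replicates 1 and 2, 19 members were tested, 2 were higher and 7 lower, while 22.1% of all genes were called higher and 23.1% lower. The median log2 fold change was −0.34 over the members and 0.03 over all genes. By limma on TPM, 1 was called higher and 9 lower, while 10.3% of all genes were called higher and 37.4% lower, at a median of −0.18 over all genes. COL6A3 had 41.02, 38.94, 40.35 and 38.56 TPM in SC replicates 3 to 6, against 122.72 and 118.14 TPM in SC replicates 1 and 2 (−1.38, SE 0.35, edgeR adjusted p = 0.00731). COL8A1 had 17.63, 18.26, 18.02 and 15.9 TPM in SC replicates 3 to 6, against 58.54 and 59.27 TPM in SC replicates 1 and 2 (−1.5, SE 0.08, adjusted p = 1.15e-10). Within each range these genes varied little, so the spread of SC stated above lies between the ranges. COL4A1 (−0.53), COL4A2 (−0.59), COL12A1 (−0.93), COL6A1 (−0.34) and COL18A1 (−0.24) were also lower, the last 2 with calls lost without SC replicate 1 (adjusted p = 0.0513 and 0.104); that of COL18A1 was lost without SC replicate 2, 3 or 5 as well.

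COL16A1 and COL7A1 went the other way. COL16A1 had 5.85, 7.9, 7.5 and 7.42 TPM in SC replicates 3 to 6, against 2.97 and 3.41 TPM in SC replicates 1 and 2 (1.43, SE 0.18, edgeR adjusted p = 3.93e-06). COL7A1 was higher by 0.48 (SE 0.1, adjusted p = 0.000434). The ranges were defined by the mean length of the genes counted, and the part of gene length in these differences was not tested.

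The iMAE guides were compared with SC to ask which genes change when a guide is aimed at an enhancer. With iMAE-1.1, 1 of 19 members tested was higher (COL8A1) and 1 lower (COL4A2), while 0.911% of all genes tested were called higher and 0.878% lower. With iMAE-1.2, 1 was higher (COL8A1) and 3 lower (COL1A1, COL4A1 and COL4A2), while 1.39% of all genes were called higher and 1.34% lower. The median log2 fold change of the members was 0.1 with each guide, against 0 over all genes. Both guides were compared with the same SC libraries.

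COL4A2 had 82.13, 76.01, 84.99 and 85.56 TPM with iMAE-1.1 and 78.9, 86.35, 77.75 and 74.77 TPM with iMAE-1.2, against 103.6, 104.83, 101.3 and 109.03 TPM in SC replicates 3 to 6. All 8 guide libraries lay below all 4 SC libraries. The log2 fold change was −0.34 (SE 0.07, edgeR adjusted p = 0.0101) with iMAE-1.1 and −0.36 (SE 0.07, adjusted p = 0.00498) with iMAE-1.2. COL4A1, its partner, had 80.63, 68.39, 87.81 and 76.84 TPM with iMAE-1.1 and 75.39, 81.16, 70.22 and 69.2 TPM with iMAE-1.2, against 95.5, 93.66, 87.32 and 94.28 TPM in SC replicates 3 to 6. It was called with iMAE-1.2 (−0.29, SE 0.07, adjusted p = 0.039) and the iMAE-1.1 libraries overlapped SC. The COL4A1 call was lost in 7 of the 8 fits that left out 1 library (adjusted p 0.0629 to 0.128), the exception being iMAE-1.2 replicate 2. COL8A1 had 23.01, 22.19, 21.01 and 20.72 TPM with iMAE-1.1 and 20.48, 20.45, 22.36 and 23.59 TPM with iMAE-1.2, against 17.63, 18.26, 18.02 and 15.9 TPM in SC replicates 3 to 6. All 8 guide libraries were above SC, by 0.33 (SE 0.07, edgeR adjusted p = 0.0182) and 0.35 (SE 0.07, adjusted p = 0.0102). With iMAE-1.1 that call was lost without SC replicate 6 (adjusted p = 0.0717), and with all 6 SC libraries as 1 group COL8A1 turned to −0.36 with iMAE-1.1 and −0.34 with iMAE-1.2 (edgeR adjusted p = 0.517 and 0.522). COL1A1 with iMAE-1.2 was lower by −0.69 (edgeR adjusted p = 0.0361) at 1.3 ± 0.186 TPM, against 2.14 ± 0.249 TPM in SC replicates 3 to 6 (SD, n = 4 each), and its call was lost in 6 of the fits that left out 1 library (adjusted p 0.0592 to 0.115). With the replicate number as a block, 0 members were called with either guide, and 6 of all genes with iMAE-1.1 and 10 with iMAE-1.2. Replicate numbers 5 and 6 occur only in SC, so those 2 libraries add nothing to this comparison in the block fit.

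The split of the MAE-1 libraries was plain in COL6A3. It had 25.41 and 23.27 TPM in iMAE-1.1 replicates 1 and 2 and 21.79 and 23.58 TPM in iMAE-1.2 replicates 3 and 4. It had 46.43 and 45.96 TPM in iMAE-1.1 replicates 3 and 4 and 44.85 and 47.27 TPM in iMAE-1.2 replicates 1 and 2, against 38.56 to 41.02 TPM in SC replicates 3 to 6. Averages by guide, 35.3 TPM with iMAE-1.1 and 34.4 TPM with iMAE-1.2, thus describe no single library. COL14A1 was split in reverse, at 1.51 and 1.54 TPM in iMAE-1.1 replicates 1 and 2 and 1.86 and 1.28 TPM in iMAE-1.2 replicates 3 and 4, with 0.58 to 0.81 TPM in the other 4. COL6A2 had 101.44 to 121.61 TPM in the first 4 libraries and 132.32 to 151.95 TPM in the other 4. These 3 were chosen after their values were seen. With iMAE-1.1 replicates 1 and 2 left out, 0 members were called for that guide and 0.715% of all genes. With its replicates 3 and 4 left out, 4 members were called (COL1A1, COL4A1 and COL4A2 lower, COL8A1 higher) and 3.84% of all genes. For iMAE-1.2, 5 members and 7.16% of all genes were called without replicates 1 and 2, and 1 member (COL4A2) and 4.11% of all genes without replicates 3 and 4. The sign of COL4A2 and of COL8A1 was the same in all 4 of these fits, at −0.25 to −0.43 for COL4A2 and 0.28 to 0.42 for COL8A1.

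**Figure D5:**
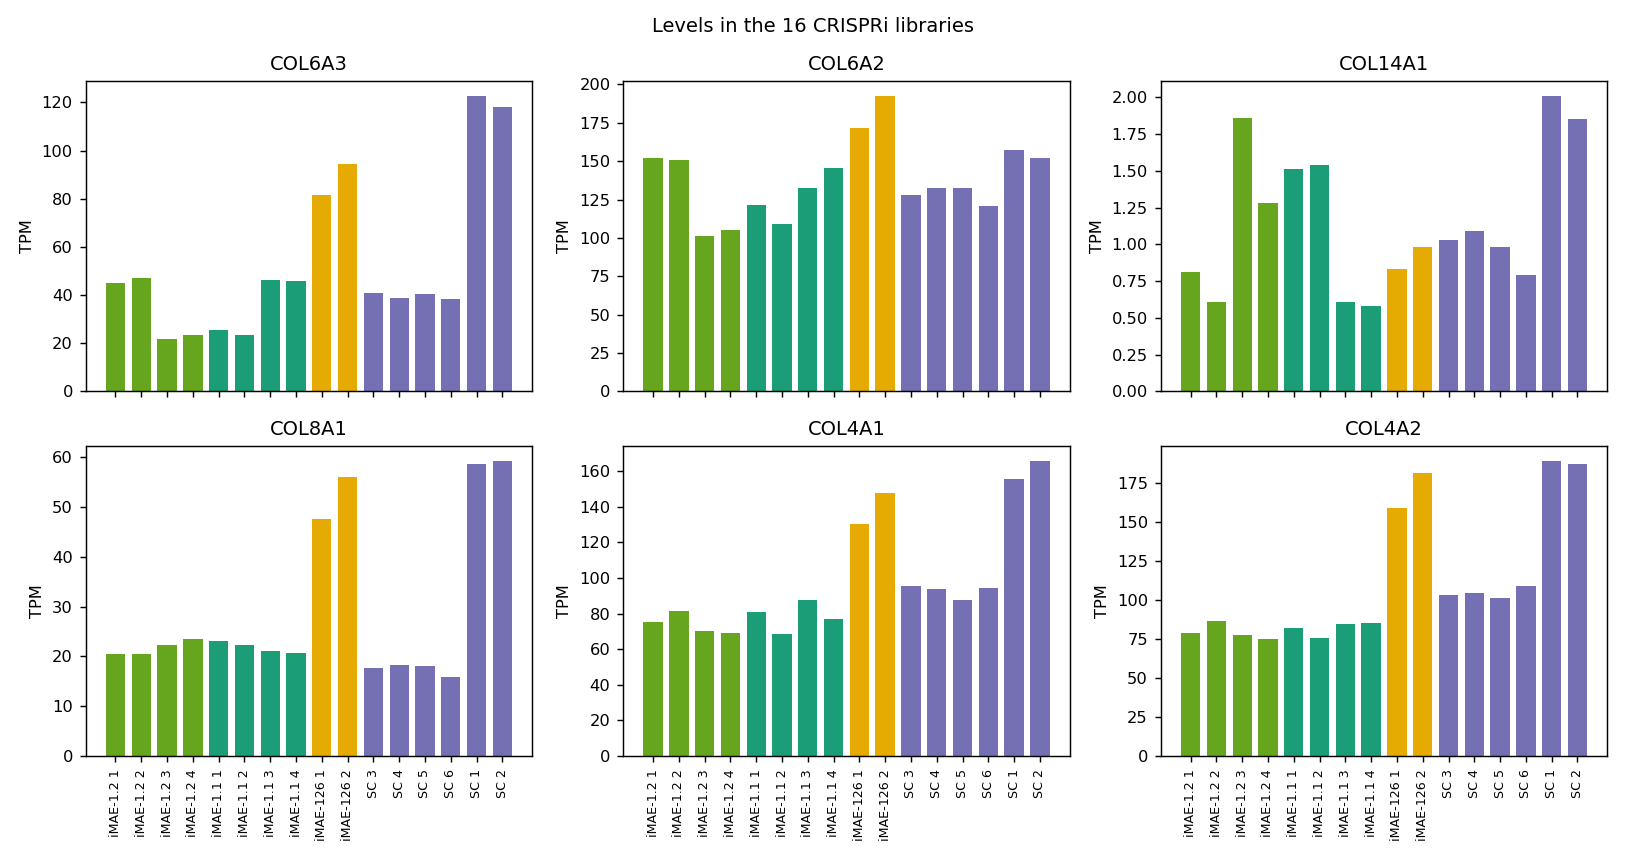
TPM of 6 members in each of the 16 CRISPRi libraries, in bars from 0, coloured by guide. COL6A3 lies at 21.79 to 25.41 TPM in iMAE-1.1 replicates 1 and 2 and iMAE-1.2 replicates 3 and 4, and at 44.85 to 47.27 TPM in the other 4 MAE-1 libraries.

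In iMAE-1.2 cells set against iMAE-1.1 cells, 0 of 19 members were called by edgeR, and 0% of the 15254 genes tested. At an unadjusted p under 0.05, 218 genes and 0 members passed, and DESeq2 called 2 genes and 0 members. Because each label holds libraries of both sets, this test compares mixtures, and the count of 0 also held with each pair of libraries left out.

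With iMAE-126, 1 of 19 members tested was higher (COL27A1) and 0 lower, while 6.31% of all genes tested were called higher and 10.4% lower. COL27A1 had 53.11 and 45.26 TPM with iMAE-126, against 38.03 and 39.26 TPM in SC replicates 1 and 2. The log2 fold change was 0.39 (SE 0.13, edgeR adjusted p = 0.0471), and the call was lost without iMAE-126 replicate 1 (0.34), SC replicate 1 (0.132) or SC replicate 2 (0.176). Here 4 members passed at an unadjusted p under 0.05. The fit shares its estimate of spread with the split MAE-1 libraries. In the 4 compared libraries alone 6 members and 24.3% of all genes were called, among them COL6A2 and COL18A1 higher (0.29 and 0.19, edgeR adjusted p = 0.00307 and 0.0216) and COL6A3 and COL14A1 lower (−0.42 and −1.04, adjusted p = 0.000227 and 0.00736). COL6A3 had 81.73 and 94.5 TPM with iMAE-126, against 122.72 and 118.14 TPM in SC replicates 1 and 2, with a standard error of 0.42 in the shared fit and 0.07 in the 4 libraries alone. With all 6 SC libraries as 1 group COL6A3 was at 0.33 with iMAE-126 (edgeR adjusted p = 0.648).

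The genes that make, process and bind collagen were read from 4 lists, and no list was tested as a set. Counts below stand beside these shares of all genes tested. In M1A against 786-O, 14.7% were called higher and 16.3% lower. In OS-LM1 against M1A these were 34.4% and 34.3%, and in SC against M1A 36.8% and 35.1%. In SC replicates 3 to 6 against 1 and 2 they were 22.1% and 23.1%, and with iMAE-126 6.31% and 10.4%. With the MAE-1 guides they were 0.911% and 0.878% (iMAE-1.1) and 1.39% and 1.34% (iMAE-1.2). Of 20 biosynthesis enzymes and chaperones, which modify and fold the chains in the endoplasmic reticulum, 10 were higher and 0 lower in M1A against 786-O, with a median of 0.39 (−0.02 over all genes). PLOD3 and PLOD2, lysyl hydroxylases, averaged 274.4 and 517.4 TPM in M1A, against 126.6 and 369.4 TPM in 786-O (1.19 and 0.56, edgeR adjusted p = 9.92e-05 and 0.0265). In OS-LM1 against M1A, 5 of the 20 were higher and 12 lower, with a median of −0.55 (0.04 over all genes). P4HA3, a subunit of prolyl hydroxylase, averaged 23.7 TPM in OS-LM1 and 0.74 TPM in M1A (5.14, adjusted p = 2.77e-07). LEPREL2, a prolyl 3-hydroxylase, averaged 2.73 TPM in OS-LM1 and 86.1 TPM in M1A (−4.92, adjusted p = 1.98e-07). In SC against M1A, 4 of 19 were higher and 13 lower, with P4HA1 at 53.1 TPM in SC and 153.7 TPM in M1A (−1.23, adjusted p = 9.54e-15). In SC replicates 3 to 6 against SC replicates 1 and 2, 1 of 18 was higher and 11 lower. With iMAE-126, 0 of 18 were higher and 4 lower, and 0 of 18 were called with either MAE-1 guide by edgeR (3 with iMAE-1.1 and 7 with iMAE-1.2 at an unadjusted p under 0.05).

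Enzymes that trim and crosslink collagen outside the cell moved both ways, 5 of 14 higher and 4 lower in M1A against 786-O (median 0.12). LOX, the lysyl oxidase, averaged 13.1 TPM in M1A and 1.19 TPM in 786-O (3.66, SE 0.14, edgeR adjusted p = 1.87e-06). PXDN, the peroxidase that crosslinks type IV collagen, averaged 47.2 TPM in M1A and 6.33 TPM in 786-O (2.97, adjusted p = 9.43e-07), so it was higher where COL4A1 and COL4A2 were lower. In OS-LM1 it was lower together with them, at 2.25 TPM, against 47.2 TPM in M1A (−4.3, adjusted p = 5.34e-08). LOX was lower in SC, at 2.19 TPM, against 13.1 TPM in M1A (−2.42, adjusted p = 5.56e-15), as COL6A3 and COL23A1 were. In OS-LM1 against M1A 7 of 14 were higher and 5 lower, and in SC against M1A 5 of 13 were higher and 6 lower.

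Of the collagen-binding matrix proteins, 1 of 12 was higher and 3 lower in M1A against 786-O, and 5 were higher and 4 lower in OS-LM1 against M1A. NID1 and NID2 encode the nidogens, which link type IV collagen to laminin. NID1 averaged 35.4 TPM in OS-LM1 and 1.64 TPM in M1A (4.52, edgeR adjusted p = 2.44e-06), while NID2 averaged 0.315 TPM in OS-LM1 and 6.37 TPM in M1A (−4.21, adjusted p = 1.05e-06). THBS1, a matrix glycoprotein, was lower with iMAE-126, at 135.8 TPM, against 314 TPM in SC replicates 1 and 2 (−1.17, SE 0.16, adjusted p = 0.00039). SC replicates 3 to 6, at 120.1 TPM, were also lower than SC replicates 1 and 2 (−1.12, SE 0.13, edgeR adjusted p = 4.43e-06). Of the receptors and uptake proteins, 0 of 10 were higher and 1 lower in M1A against 786-O, and 6 were higher and 2 lower in OS-LM1 against M1A. MRC2, which takes up collagen for degradation, averaged 10.4 TPM in OS-LM1 and 83.7 TPM in M1A (−2.92, adjusted p = 5.29e-07). In SC against M1A, 3 of the 10 receptors were higher and 6 lower, and 6 of 11 binding proteins were higher and 4 lower. The MAE-1 guides gave 1 call in these 2 lists, a binding protein higher with iMAE-1.1, and 0 calls among the processing enzymes.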

How the data were processed

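Poly(A) RNA was sequenced in 22 libraries of human renal cancer lines with a stranded kit, per the labels' protocols. The authors deposited 1 table per library with expected counts and TPM per gene, and Bowtie2, RSEM and hg19 are named in the submitters' processing notes. The expected counts deposited by the authors are estimates that need not be whole, and they were rounded here. In each library 27.2% to 31.2% of all genes listed had a count that was not whole. The deposited TPM values are used for levels. In every table the effective length equalled the gene length, so TPM has no correction for fragment length.

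Fold changes came from edgeR 4.0.16 (R 4.3.3): genes with a minimum count of 10 (filterByExpr), TMM factors, robust quasi-likelihood fits, Benjamini-Hochberg adjustment over all genes tested and a call at an adjusted p under 0.05. The 3 lines shared 1 fit, SC and M1A another, and the 16 CRISPRi libraries their own, with SC replicates 1 and 2 and SC replicates 3 to 6 as separate terms. Alternatives were DESeq2 1.42.0, RLE factors, other filters, limma 3.58.1 on log2(TPM + 1), a replicate block, other sets of libraries and each library left out. The pipeline was tested on simulated data.

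Named members are the 12 with the highest mean level and up to 6 called per direction and comparison with a mean of at least 1 TPM; of each list up to 4 genes per comparison. Members and lists were chosen with earlier results of these data known. The SC ranges were also known from them. The split of the MAE-1 libraries was found after the data were seen. Promoters are RefSeq's in GRCh38.p14, and no coordinates of the hg19 tables were used. Intervals cover counting error only.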

Additional observations from a re-analysis of the deposited data

Results flagged for a closer look

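COL4A6 was at 0.05 TPM in iMAE-1.2 replicate 1, while the other 3 libraries of that guide were at 0, and COL23A1 was at 0.04 TPM in iMAE-1.1 replicate 1, while the other 3 were at 0. Each is a library far from the rest of its group by the gap test, and each stands on 1 or 2 reads. Chance flags about 1 in 20 groups, and 59 groups were tested.

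The difference from M1A went opposite ways in the 2 ranges of SC libraries for 2 members. COL4A1 was at −0.15 (log2) in SC replicates 3 to 6 and 0.43 in SC replicates 1 and 2, and the test of SC replicates 3 to 6 against SC replicates 1 and 2 gave −0.53 (edgeR adjusted p = 7.63e-05). COL12A1 was at −0.34 in SC replicates 3 to 6 and 0.63 in SC replicates 1 and 2, and the same test gave −0.93 (adjusted p = 0.000726). Library range and any difference between the cultures cannot be told apart.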

How the results depend on the processing

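Calls of collagens in M1A against 786-O numbered 20, 13 with limma on TPM and 12 to 14 with 1 library left out. In OS-LM1 against M1A (24) and SC against M1A (16) the count stayed within 1.5 times under every alternative run, and the fit of the compared groups alone was already the one used for SC. With iMAE-1.1 the count was 2, 0 with the replicate block, 0 with all 6 SC libraries as 1 term, 1 with all 22 libraries, 1 to 2 with 1 library left out, and 0 or 4 without replicates 1 and 2 or replicates 3 and 4. With iMAE-1.2 it was 4, 0 with the replicate block, 2 with all 6 SC libraries as 1 term, 2 to 5 with 1 library left out and 1 without replicates 3 and 4. With iMAE-126 it was 1, 0 with RLE factors, limma or the replicate block, 6 with the compared groups alone, 4 with all 6 SC libraries as 1 term and 0 to 1 with 1 library left out, where the lone library of a group is assumed to vary like the others. In SC replicates 3 to 6 against 1 and 2 it was 9, and 5 with the replicate block. Over all genes, the block left 6 of 273 calls with iMAE-1.1 and 10 of 417 with iMAE-1.2, and all 6 SC libraries as 1 term left 69 and 110. In M1A against 786-O, calls over all genes also fell, from 5064 to 4249 with limma, and fell with 1 library left out. With iMAE-126, 2550 genes were called, 2587 with RLE factors, 2214 with limma, 1388 with the block and 2357 with all 6 SC libraries as 1 term. Between the SC ranges 6893 genes were called, and 3648 with the block.

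Whether the replicate numbers pair the samples was not settled. Same-numbered CRISPRi libraries correlated at −0.58 to 0.25 in their deviations from the group means. Values of −0.58 to −0.24 were all between iMAE-1.1 and iMAE-1.2, where the crossed split enters, and the others lay at −0.12 to 0.25. The M1A and 786-O pairs correlated at 0.16 and OS-LM1 with M1A at −0.25. Where both groups have 2 libraries, the pairs give the same value by construction. In OS-LM1 against M1A the block called 11237 genes with crossed numbers and 10716 with the numbers as labelled. Among values that passed the test in at least 1 of the fits set side by side, signs turned for COL4A1 in SC against M1A (−0.06 with limma, −0.15 with SC replicates 3 to 6), COL4A2 (0.11 with SC replicates 1 and 2, with or without the block), COL12A1 (−0.34 with SC replicates 3 to 6) and COL8A1 with the MAE-1 guides (−0.36 and −0.34 with all 6 SC libraries as 1 term). The cause was not tested. Of the other values of named members, 827 kept their side of the threshold with 1 library left out (42 of them uncalled values that changed sign), 52 lost a call and 3 gained one. Under the other alternatives 1290 kept their side (57 of them uncalled values that changed sign), 46 lost a call and 29 gained one. Among the 57, with all 6 SC libraries as 1 term and iMAE-126, COL6A3 was at 0.33, against −0.43 as reported, and COL8A1 at 0.66, against −0.15. Members under 1 TPM rest on few reads, and their calls depend on depth.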
